A study of Mus musculus with 13 samples.

Results

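The heat shock proteins and their DNAJ partners are the chaperones that fold newly made proteins, hold unfolded ones in solution and pass them to refolding or degradation. HSP70 proteins bind stretches of unfolded chain in a cycle driven by ATP. J-domain proteins (DNAJA, DNAJB and DNAJC) bring clients to HSP70 and start its ATPase, and HSP110 proteins help to release the nucleotide. HSP90 acts on nearly folded clients such as kinases and receptors, HSP60 with HSP10 folds proteins inside mitochondria, and small HSPs hold clients without ATP. In muscle these proteins serve the folding and turnover of the contractile apparatus, and small HSPs are abundant in mature fibers. Members were taken from the gene annotation by symbol alone, as protein-coding genes of the Hspa, Hspb, Hspd, Hspe, Hsph1, Hsp90, Dnaja, Dnajb and Dnajc series. This gave 72 genes, all present among the 55642 genes of the count table. They comprised 14 HSP70 and HSP110 genes, 3 HSP90 genes, 7 small HSPs, 3 genes of HSP60 and HSP10, 4 DNAJA, 13 DNAJB and 28 DNAJC genes.

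The RNAseq came from C2C12 cells, an established mouse myoblast line. Cells received a nontargeting siRNA pool (control KD) or siRNAs to YBX3, an RNA-binding protein of the cold shock domain family (YBX3 KD), and were harvested 48 h after transfection. At 0 day the cells were proliferating myoblasts (4 control KD and 4 YBX3 KD libraries), and at 1 day they had been moved to differentiation medium (2 control KD and 3 YBX3 KD libraries). Each of the 13 libraries carries a replicate letter in its description, which runs from A to D at 0 day, is C or D in control KD at 1 day and B, C or D in YBX3 KD at 1 day. The labels call the libraries biological replicates without saying whether they were separate cultures, so the p-values measure the spread between these libraries.

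Total estimated counts ranged from 33451547 to 71811371 per library. Of the 72 members, 62 had enough counts to be tested, beside 16848 genes in all. The other 10 were Hspa1l, Hspb3, Hspb9, Dnajb3, Dnajb7, Dnajb8, Dnajb13, Dnajc5b, Dnajc5g and Dnajc12, of which Hspb9, Dnajb3, Dnajb7 and Dnajb8 had no count in any library. The unit of level is CPM, a gene's counts relative to its library's total after TMM scaling. As the check of the knockdown, Ybx3 was at 265 to 347 CPM in control KD and at 28.7 to 71.5 CPM in YBX3 KD, a mean of 14.5% of control (adjusted p = 5.26e-06, edgeR quasi-likelihood test). Of 7 myoblast markers, Myf5, Des, Cdh15, Vcam1 and Itga7 were at 15.5 CPM or more in every library, whereas Myod1 was at 0.601 to 3.32 CPM and Pax7 at no more than 0.179 CPM. Of the differentiation markers, Tnnt2 was at 24.4 to 90.5 CPM and Myog, Mymk, Mymx, Ckm, Myh3 and Actc1 were at no more than 3.71 CPM at either day. Adipocyte, osteoblast, endothelial and haematopoietic markers were at no more than 1.39 CPM. In bulk RNA, fewer cells with a transcript and less of it per cell cannot be told apart. The 4 libraries of replicate D stood apart from the other 9, also for the chaperones. The results below for the members are given with and without them where that changes a call.

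Transcription of cytosolic and mitochondrial chaperones responds to heat shock factors, which bind inverted repeats of GAA. Chaperones of the ER respond to the unfolded protein response through the ER stress element. Both motifs were searched on both strands of the 300 bases before the canonical transcript start (GENCODE vM39, GRCm39) of 21757 protein-coding genes. A heat shock element of 3 units, GAANNTTCNNGAA or its inverted order, was found in 105 promoters, 0.483% of all, and in 2 of 72 members, Hspd1 and Hspe1. These genes encode HSP60 and HSP10, and their canonical transcripts run away from each other from the same stretch of chromosome 1, so the matches are the same bases read on both strands. The annotation also holds longer Hspd1 transcripts, with which the Hspd1 gene (chr1:55116989-55171038) spans all of Hspe1 (chr1:55127260-55130476) and has exons over the window shown. The window is shown because Hspd1 (adjusted p = 0.00319, edgeR) and Hspe1 (adjusted p = 0.00393) both differed among the replicate letters. Capitals mark 2 overlapping matches.
Hspd1 (chr1:55127213-55127240, minus strand): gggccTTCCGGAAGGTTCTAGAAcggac
The matches end 35 bases before the Hspd1 start and 56 bases before the Hspe1 start.

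The ER stress element, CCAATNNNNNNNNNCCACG, was found in 25 promoters, 0.115% of all, and in 3 members, Hspa5, Hsp90b1 and Dnajc3. Hspa5 encodes BiP, the HSP70 of the ER, Hsp90b1 encodes its HSP90 (GRP94), and Dnajc3 encodes a J protein of the ER lumen. Hsp90b1 held the element in both orientations. The Hspa5 window and the second Hsp90b1 window shown lie within exons of other annotated transcripts of the same genes. The first Hsp90b1 window lies within an exon of Ttc41. Capitals mark the element.
Hspa5 (chr2:34662032-34662060, plus strand): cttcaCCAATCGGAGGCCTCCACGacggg
Hsp90b1 (chr10:86541497-86541525, minus strand): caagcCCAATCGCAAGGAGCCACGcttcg
Hsp90b1 (chr10:86541392-86541420, minus strand): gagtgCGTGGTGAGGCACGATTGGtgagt
Dnajc3 (chr14:119175234-119175262, plus strand): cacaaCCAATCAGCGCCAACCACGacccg
Dnajb9, the ER chaperone that differed between the siRNAs, held no match to these letters in the window.

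A heat shock element of only 2 units, GAANNTTC or its inverted order, is short and was found in 3252 promoters, 14.9% of all, and in 16 of 72 members, 22.2%. This count includes Hspd1 and Hspe1, since the shorter motif lies within the longer one. The inducible genes of the cytosol with a match are shown, because Hsph1 and Dnaja1 varied with the replicate letter and Hspa1a and Hspa1b are near-identical copies. Of the 5 members with the smallest p among the letters, Hspd1 and Hsph1 held a match, and Dnajb1, Hspa2 and Hsp90aa1 held none. Whether either heat shock motif goes with the letters was not tested. The Hsph1 and Dnaja1 windows shown lie within exons of other annotated transcripts of the same genes. That of Dnaja1 also lies within exons of Gm6297. Capitals mark the 2 units.
Hsph1 (chr5:149559822-149559839, minus strand): aatctTTCTCGAAggctc
Dnaja1 (chr4:40722339-40722356, plus strand): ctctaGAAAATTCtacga
Hspa1a (chr17:35191224-35191241, minus strand): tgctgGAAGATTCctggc
Hspa1b (chr17:35178306-35178323, minus strand): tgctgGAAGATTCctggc
The windows of Hspa1a and Hspa1b are the same, and their coding sequences matched at 1915 bases, an identity of 99.4%. Reads from these coding sequences can hardly be told apart, and the estimated counts of both genes are uncertain. The untranslated parts of the transcripts were not compared. A match is a description of the letters and was not tested for binding.

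Per kb of transcript, Hsp90ab1, the constitutive cytosolic HSP90, had the highest level of the members in control KD at 0 day, 1321 ± 30.3 CPM per kb (SD, n = 4). The next were Hspa8, the constitutive cytosolic HSP70 (502 ± 31.8), Hsp90b1 (402 ± 42.0), Hsp90aa1, the inducible HSP90 (308 ± 65.4), and Hspd1 (270.5 ± 74.8). The median of all tested genes with a length was 5.42 CPM per kb. The ranges of Hsp90b1 and Hsp90aa1 overlapped, as did those of Hsp90aa1 and Hspd1, while Hsp90ab1 and Hspa8 each lay above the highest library of the next gene. All 62 tested members together made up 0.964 to 1.53% of the counts of a library. The inducible HSP70 gene Hspa1b was at 29.0 to 36.8 CPM in the 13 libraries, and its copy Hspa1a at 0.125 to 0.921 CPM.

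**Figure D1:**
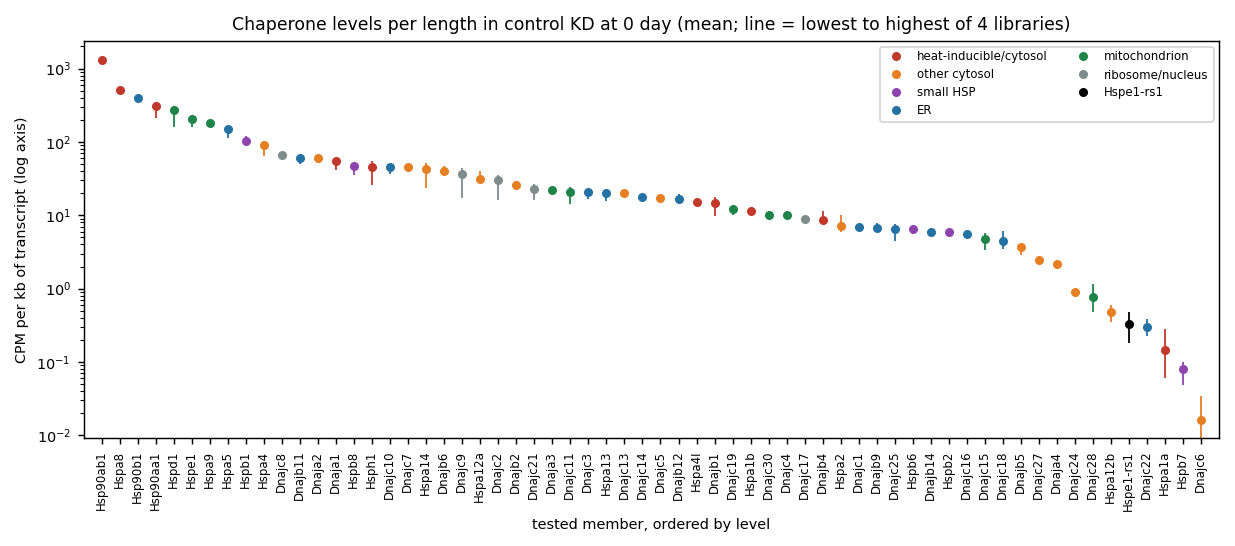
Level of each tested member in control KD at 0 day, in CPM per kb of the canonical transcript on a log axis; points are means, lines run from the lowest to the highest of 4 libraries and colors mark the role. Hsp90ab1 stands at 1321 CPM per kb and Hspa8 at 502, while Dnajc6, Hspb7 and Hspa1a lie lowest, and where a library had no count the line runs off the axis.

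Whether loss of YBX3 changes chaperone transcripts was asked over both days, with the day as a term. Hsp90ab1 was lower and Dnajb9 higher in YBX3 KD, and these were the 2 of 62 tested members (3.23%) with an adjusted p under 0.05, against 2.34% of all genes tested. The share of members called was thus near that of the background. In edgeR no member passed the thresholds of the study, against 0.113% of all genes. These are an absolute fold change above 1.3 with an adjusted p under 0.001. An unadjusted p under 0.05 was found for 9 members (14.5%) and for 15.6% of all genes. The log2 fold change was negative for 41 members and positive for 21, with a median of -0.08 against 0.00080 over all genes. For 53 members the 95% interval of the log2 fold change included 0, and for 42 it lay wholly within 0.5 of 0. These values are from edgeR, whereas the study used DESeq2. With DESeq2 here, Dnajb9 just passed a fold change of 1.3 and an adjusted p of 0.001, with a log2 fold change of 0.37958 (adjusted p = 0.000777, DESeq2). The share of all genes past these thresholds was not counted in DESeq2. The supplement of the study names its gene lists by a slightly higher log2 cut, which Dnajb9 did not reach. The study also adjusted its p-values with independent hypothesis weighting, which was not used here.

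Hsp90ab1 (chr17:45878552-45891949, GRCm39) encodes the HSP90 that cells make without stress. It was at 3541, 3477, 3671 and 3593 CPM in control KD A to D at 0 day and at 3918 and 3221 CPM in control KD C and D at 1 day. In YBX3 KD it was at 2764, 3125, 3031 and 2486 CPM in A to D at 0 day and at 3267, 2865 and 2727 CPM in B to D at 1 day. All but 1 of the 7 YBX3 KD libraries, replicate B at 1 day, lay below every control KD library, and YBX3 KD was lower in 6 of 6 pairs of the same letter and day. The mean was 81.1% of control. The log2 fold change was -0.31 with a standard error of 0.071 (adjusted p = 0.0443, edgeR quasi-likelihood test). Hsp90ab1 overlaps Slc35b2 on the opposite strand, so part of its reads may be shared if strand was not kept, and its own close relative Hsp90aa1 shares 75.4% of the coding bases.

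Dnajb9 (chr12:44252341-44257171) encodes an ER J protein that partners BiP and is a known target of the unfolded protein response. It was at 17.1, 19.2, 15.7 and 14.7 CPM in control KD A to D at 0 day, and at 15.1 CPM in both control KD libraries at 1 day. In YBX3 KD it was at 19.8, 22.9, 21.3 and 19.99 CPM at 0 day and at 18.4, 23.8 and 20.8 CPM at 1 day. Here too 6 of 7 YBX3 KD libraries lay above every control KD library, and YBX3 KD was higher in 6 of 6 pairs. The mean was 130.1% of control, with a log2 fold change of 0.39 and a standard error of 0.084 (adjusted p = 0.0327, edgeR quasi-likelihood test). Both calls depended on single libraries. With each library left out in turn, Dnajb9 kept an adjusted p under 0.05 in 5 of 13 fits, those without control KD B or D at 0 day, YBX3 KD D at 0 day, or YBX3 KD B or D at 1 day. Its log2 fold change stayed at 0.35 to 0.43, and its adjusted p reached 0.0930. Hsp90ab1 kept its call in 3 of 13 fits, those without control KD D at 0 day, control KD D at 1 day or YBX3 KD B at 1 day. Its log2 fold change stayed at -0.35 to -0.26, and its adjusted p reached 0.136.

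**Figure D2:**
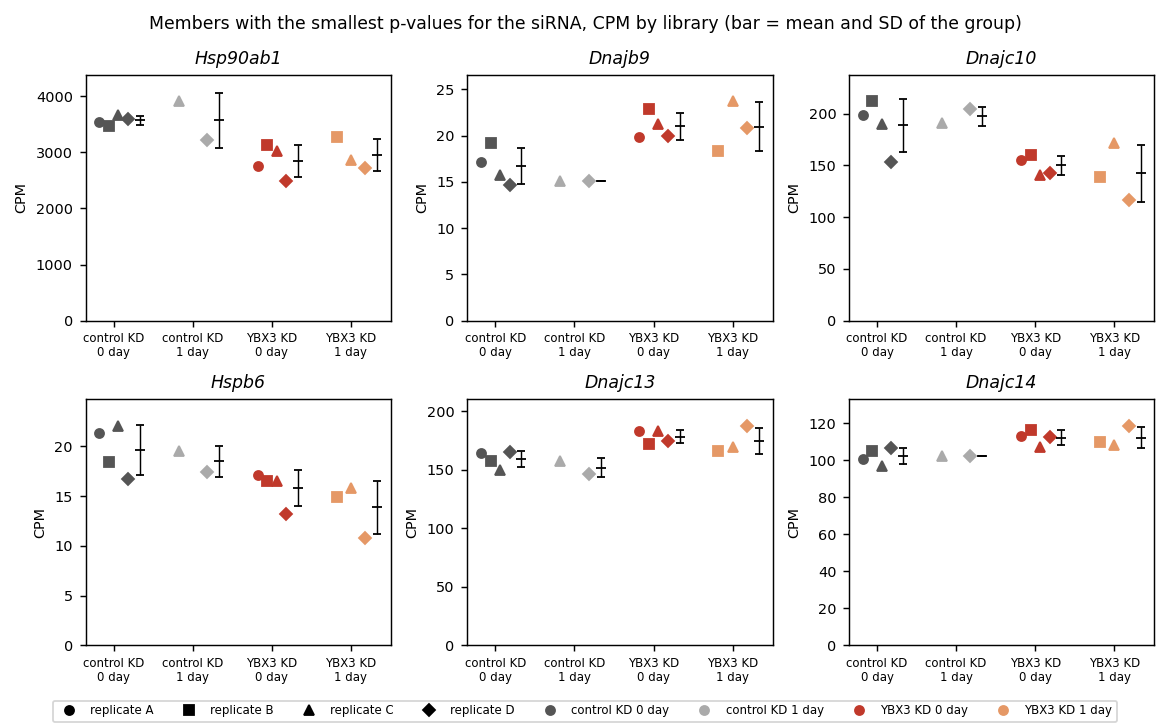
CPM of Hsp90ab1, Dnajb9, Dnajc10, Hspb6, Dnajc13 and Dnajc14 in each library by group, with the replicate letter as the symbol and bars for the group mean and SD. Hsp90ab1 lies at 3221 to 3918 CPM in control KD and at 2486 to 3267 in YBX3 KD, and for Dnajc13 and Dnajc14 every YBX3 KD library lies above every control KD library.

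The 2 members with the next smallest p-values in each direction did not pass over all genes in edgeR. In DESeq2 without a block, 7 members (11.3%) were called, against 7% of all genes, and these were among them. Their adjusted p-values in DESeq2 were 0.00701 for Dnajc10, 0.0387 for Hspb6, 0.00446 for Dnajc13 and 0.0103 for Dnajc14. Dnajc10 (chr2:80145787-80184941), an ER J protein that reduces disulfide bonds, was at 199, 212, 190.4 and 153 CPM in control KD at 0 day and at 191 and 204 CPM at 1 day. In YBX3 KD it was at 156, 160.3, 141 and 143 CPM at 0 day and at 139, 172 and 117 CPM at 1 day. The groups overlapped only through control KD D at 0 day, and the log2 fold change was -0.38 ± 0.097 (SE, adjusted p = 0.0618 in edgeR). Dnajc13, which acts on endosomes, had a log2 fold change of 0.18 ± 0.050 (SE, adjusted p = 0.0927), with 146 to 165 CPM in control KD and 166 to 188 CPM in YBX3 KD. Hspb6, a small HSP of muscle, was at 16.7 to 22.1 CPM in control KD and 10.8 to 17.2 CPM in YBX3 KD (log2 fold change -0.35 ± 0.107 SE, adjusted p = 0.120). Dnajc14, a J protein of the ER membrane, was at 96.8 to 106 CPM in control KD and 107 to 119 CPM in YBX3 KD (log2 fold change 0.13 ± 0.046 SE, adjusted p = 0.170). Dnajc13 and Dnajc14 were the 2 members (3.23%) whose siRNA groups did not overlap at all, against 2.03% of all genes. Dnajc14 overlaps Sarnp on the same strand, so part of its reads may be shared.

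**Figure D3:**
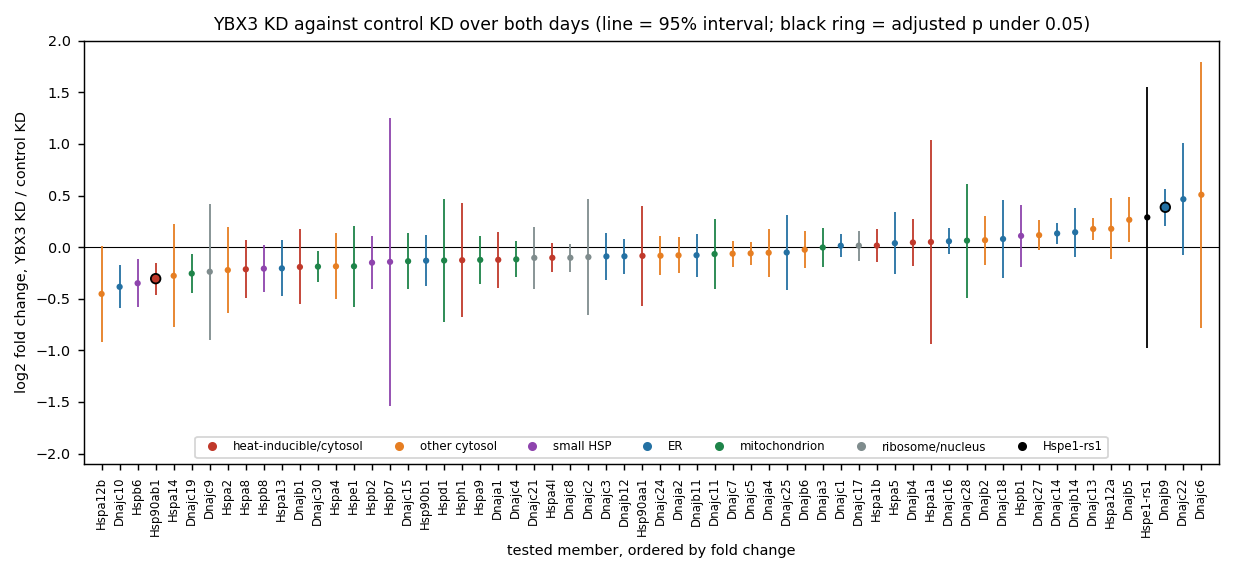
Log2 fold change of YBX3 KD against control KD over both days for each of the 62 tested members, ordered by value, with 95% intervals and colors for the role; black rings mark an adjusted p under 0.05. Most intervals include 0, and the rings stand on Hsp90ab1 at -0.31 and Dnajb9 at 0.39.

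The libraries with the same letter deviated together, so the comparison was also fitted with the letter as a block. Then 9 members (14.5%) had an adjusted p under 0.05, against 9.78% of all genes, and 7 of the 9 were lower in YBX3 KD. The members added to Hsp90ab1 (blocked log2 fold change -0.32, adjusted p = 0.0112) and Dnajb9 (0.38, adjusted p = 0.0230) were Dnajc13 (0.18, adjusted p = 0.0381), Dnajc10 (-0.40, adjusted p = 0.0237) and Hspb6 (-0.36, adjusted p = 0.0115), and 4 others. Of these, Hspb8, a small HSP that works with BAG3 in the autophagy of damaged muscle proteins, had a blocked log2 fold change of -0.23 (adjusted p = 0.0249). Dnajc19, part of the mitochondrial import motor, had -0.27 (adjusted p = 0.0395). Dnajb1, the main inducible HSP40 of the cytosol, had -0.25 (adjusted p = 0.0369), and Hspe1 had -0.25 (adjusted p = 0.0479). Without the block the adjusted p-values of Hspb8, Dnajc19, Dnajb1 and Hspe1 were 0.371, 0.157, 0.631 and 0.673. Hspb8 and Hspe1 were lower in YBX3 KD in 6 of 6 pairs, and Dnajc19 and Dnajb1 in 5 of 6. With the 4 libraries of replicate D left out and no block, 9 members were called, against 12.5% of all genes. These were Hsp90ab1, Dnajb9, Dnajc10, Hspb6, Hspb8 and Dnajc19, with Dnajb5, Hspa13 and Hspa14 in addition. DESeq2 with the letter as a block called 17 members (27.4%), against 17.5% of all genes. Whether the share of members differs from that of all genes was not tested in any of these fits.

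By role, the 10 tested heat-inducible and constitutive genes of the cytosol had a median log2 fold change of -0.11, with 7 negative, and only Hsp90ab1 was called, joined by Dnajb1 with the letter as a block. Hsph1, the HSP110 partner of HSP70, was at -0.13, Hspa8 at -0.21 and Hsp90aa1 at -0.08, none of them called. Hspa1b was at 0.02 with a 95% interval of -0.14 to 0.17, so a change as large as that of Dnajb9 lay outside its interval. The 16 other cytosolic members had a median of -0.06, with 10 negative, and none was called, whereas Dnajc13 was called with the block. The 15 ER members had a median of 0.01, with 8 positive, and only Dnajb9 was called, joined by Dnajc10 with the block. Hspa5 was at 0.04 (95% interval -0.26 to 0.34), Hsp90b1 at -0.13, Dnajb11 at -0.08 and Dnajc3 at -0.09, and none of these 4 was called. Of the 10 mitochondrial members 9 were negative, with a median of -0.13, and none was called, whereas Dnajc19 and Hspe1 were called with the block. In this role Hspa9, the mitochondrial HSP70, was at -0.12, Hspd1 at -0.13 and Dnaja3 at -0.0033. The 5 tested small HSPs had a median of -0.15, with 4 negative and none called, whereas Hspb6 and Hspb8 were called with the block. In this group Hspb1 was at 0.11. The 5 members of the ribosome and nucleus had a median of -0.10 and none was called in either fit.

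Other genes of chaperone pathways were given from lists of heat shock factors and cochaperones, the CCT chaperonin and prefoldin, ER folding factors and mitochondrial factors, 57 genes in all, and all were tested. None had an adjusted p under 0.05 over both days in edgeR, against 2.34% of all genes. An unadjusted p under 0.05 was found for 6 of the 57, all from the 22 factors and cochaperones, against 15.6% of all genes. DESeq2 called 2 of the 57, Cdc37 and Bag3, against 7% of all genes. The 3 with the smallest p were Cdc37, which brings kinases to HSP90, with a log2 fold change of -0.19 ± 0.051 (SE, adjusted p = 0.0787), Sugt1 with -0.21 (adjusted p = 0.197) and Bag3 with -0.14 (adjusted p = 0.197). With the letter as a block in edgeR, 5 of the 22 and 3 of the 14 CCT and prefoldin genes were called, against 9.78% of all genes. Cdc37 then had an adjusted p of 0.0303. None of the 15 ER factors was called in either fit, and none of the 6 mitochondrial factors.

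Within a single day no member had an adjusted p under 0.05 in edgeR, with or without the letter as a block, or in DESeq2 without it. At 0 day, 0.427% of all genes were called in edgeR, 2.37% in edgeR with the block and 3% in DESeq2. In edgeR without the block, 7 members (11.3%) had an unadjusted p under 0.05, against 11% of all genes. At 1 day there were only 2 control KD libraries. There, 0.0712% of all genes were called in edgeR with or without the block, and 0.902% in DESeq2. In edgeR without the block, 5 members (8.06%) had an unadjusted p under 0.05, against 7.79% of all genes. Other fits gave calls. At 0 day, edgeR with replicate D left out called Dnajb5, Dnajc10 and Dnajc19 (4.84% of members, against 5.49% of all genes), and DESeq2 with the block called Dnajb5, Hsp90ab1, Hspa8, Hspb6 and Hspb8 (8.06%, against 7.91%). At 1 day, DESeq2 with the block called 18 members (29%), against 13.9% of all genes, and 16 of the 18 were lower in YBX3 KD, whereas edgeR with the same block called none. Hsp90ab1 had a log2 fold change of -0.32 ± 0.093 (SE) at 0 day and -0.27 ± 0.120 at 1 day. Dnajb9 had 0.33 ± 0.107 (SE) at 0 day and 0.48 ± 0.140 at 1 day. Dnajc10 had -0.33 ± 0.126 (SE) at 0 day and -0.47 ± 0.161 at 1 day. A direct test of the difference of the siRNA effect between the days called no member and 0% of all genes in edgeR. DESeq2 called no member in this test, against 0.0119% of all genes. An unadjusted p under 0.05 was found for no member in edgeR, against 2.64% of all genes, for 1 in DESeq2, against 3.11%, and for 8 in edgeR with the letter as a block, against 11%. The 95% interval of that difference was -0.28 to 0.38 for Hsp90ab1 and -0.24 to 0.53 for Dnajb9 on the log2 scale, so that differences as large as the effects themselves lay within these intervals.

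The move to differentiation medium was compared over both siRNAs. No member and 0% of all genes had an adjusted p under 0.05 in edgeR, and DESeq2 called no member, against 0.0119% of all genes. The median log2 difference of 1 day against 0 day was 0.0062 over the members and 0.0020 over all genes, with 35 members positive. The only member with an unadjusted p under 0.05 was Dnajb5, a J protein of the DNAJB1 type, which was lower by 0.35 on the log2 scale (standard error 0.103, unadjusted p = 0.00528 and adjusted p = 1.00 in edgeR). Dnajb5 was at 12.6, 12.2, 11.5 and 8.89 CPM in control KD at 0 day and at 9.43 and 10.7 CPM at 1 day. In YBX3 KD it was at 15.8, 15.2, 15.0 and 13.02 CPM at 0 day and at 10.3, 11.1 and 10.1 CPM at 1 day. The 4 YBX3 KD libraries at 0 day were the highest of all 13. With replicate D left out, Dnajb5 was the 1 member called between the days (1.61%), against 0.932% of all genes. The other members with the smallest p-values were Hspb2 (-0.25) and Dnajb2 (-0.16) downward and Dnajb4 (0.14), Hspb7 (0.81) and Dnajc22 (0.29) upward, none with an unadjusted p under 0.05. Hspb7, a small HSP of heart and skeletal muscle, was at no more than 0.618 CPM in any library, and Dnajc22 at no more than 1.79 CPM. Of the 57 other chaperone genes none was called in edgeR or DESeq2. Cryab and Calr had an unadjusted p under 0.05 in edgeR, as did 2.83% of all genes.

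More members were called among the replicate letters than between the siRNAs or the days. In a test of differences among the letters given the group, 31 of 62 members (50.0%) had an adjusted p under 0.05, against 35.7% of all genes. DESeq2 called 34 (54.8%), against 42.2% of all genes. The 5 members with the smallest p were Dnajb1 (adjusted p = 0.00272), Hspa2 (adjusted p = 0.00316), Hspd1 (adjusted p = 0.00319), Hsph1 (adjusted p = 0.00326) and Hsp90aa1 (adjusted p = 0.00376), all by edgeR. With replicate D left out no member and 0 genes were called among the letters, and 1 member had an unadjusted p under 0.05, against 6.75% of all genes. Without YBX3 KD replicate D at 1 day alone, 20 members (32.3%) were called, against 18% of all genes. Replicate D was singled out after its values were seen. Its 4 libraries had totals of 33451547 to 41868570, against 36819569 to 71811371 in the other 9, and their part in these differences was not tested. Which preparation, passage or day the letters stand for is not given in the labels.

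All 4 libraries of replicate D lay below the other 9 for 15 members (24.2%), against 9.10% of all genes, and above them for 3 members (4.84%), against 9.66%. Dnajb1 was at 34.8, 45.6, 35.6 and 31.3 CPM in replicate D of control KD at 0 and 1 day and YBX3 KD at 0 and 1 day, and at 46.3 to 63.0 CPM in replicates A to C. Hspd1 was at 384, 485, 380.02 and 297 CPM in replicate D and at 603 to 946 CPM in A to C. Its neighbor Hspe1 was at 122, 112, 98.7 and 95.7 CPM in replicate D and at 137 to 196 CPM in A to C. Transcripts of HSP60 and HSP10 were thus both lowest in replicate D, and a part of their promoter in this was not tested. Hsph1 was at 161, 180.03, 182 and 143 CPM in replicate D and at 255 to 400.3 CPM in A to C. Hsp90aa1 was at 745, 792, 713 and 626 CPM in replicate D and at 995 to 1574 CPM in A to C. Replicate D of Hsp90aa1 averaged 55.3% of the other libraries of the same group, that of Hspd1 48.8% and that of Hsph1 50.5%.

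**Figure D4:**
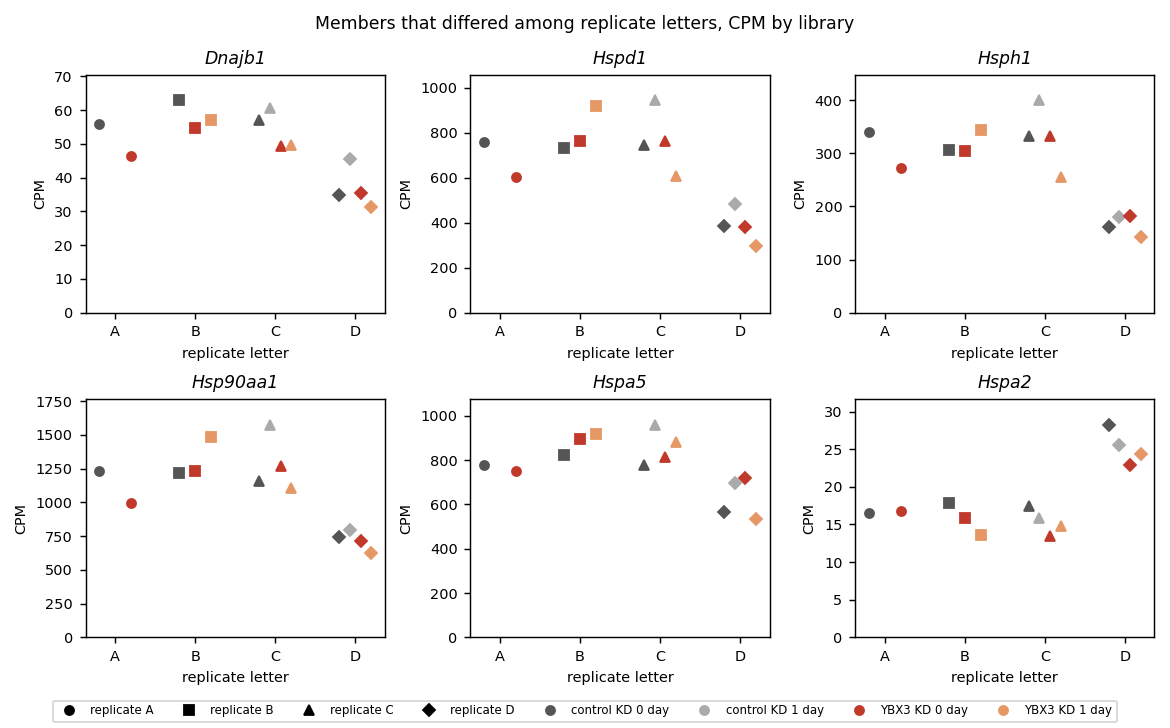
CPM of Dnajb1, Hspd1, Hsph1, Hsp90aa1, Hspa5 and Hspa2 in each library by replicate letter, with colors for the siRNA and day. The 4 libraries of replicate D lie below the other 9 for the first 5 genes and above them for Hspa2, at 22.9 to 28.2 against 13.5 to 17.9 CPM.

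The members with low replicate D came from each of the roles. They were 4 of 10 heat-inducible and constitutive cytosolic genes (Dnaja1, Dnajb1, Hsp90aa1 and Hsph1), 4 of 10 mitochondrial genes (Dnaja3, Dnajc11, Hspd1 and Hspe1), 3 of 15 ER genes (Dnajc3, Dnajc25 and Hspa5), 2 of 5 genes of the ribosome and nucleus (Dnajc2 and Dnajc9), 1 of 5 small HSPs (Hspb8) and 1 of 16 other cytosolic genes (Dnaja4). Hspa5 was at 564, 696, 719.7 and 535 CPM in replicate D and at 752 to 959 CPM in A to C. Hsp90b1, the HSP90 of the ER, overlapped, at 787 to 1093 CPM in replicate D and 1050.2 to 1439 CPM in A to C. Hspa8 overlapped as well, at 711 to 1096 CPM against 951 to 1264 CPM, and Hsp90ab1 at 2486 to 3593 against 2764 to 3918 CPM. The 3 members that were higher in replicate D were Hspa2, an HSP70 known from testis, Dnajb12 of the ER membrane and Hspa1a. For Hspa1a the values were 0.681 to 0.921 CPM in replicate D and 0.125 to 0.477 CPM in A to C, whereas its copy Hspa1b overlapped, at 29.1 to 32.9 and 29.0 to 36.8 CPM. All members together made up 0.964 to 1.16% of the counts in replicate D and 1.16 to 1.53% in A to C.

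Of the 57 other chaperone genes, 31 had an adjusted p under 0.05 among the letters, against 35.7% of all genes. These were 12 of 14 CCT and prefoldin genes, 12 of 22 factors and cochaperones, 5 of 15 ER factors and 2 of 6 mitochondrial factors. With replicate D left out 0 genes were called among the letters, so none of these 31 was. The 3 with the smallest p were Ppid (adjusted p = 0.00298), a cyclophilin bound to HSP90, and the chaperonin subunits Cct6a (adjusted p = 0.00310) and Cct8 (adjusted p = 0.00380), all by edgeR. Replicate D lay below the other 9 libraries for 13 of the 57, against 9.10% of all genes. Among them were 6 of the 14 CCT and prefoldin genes and the heat shock factors Hsf1 and Hsf2. It lay above them for 1, the ER factor Sil1, against 9.66% of all genes. None of the ER factors lay below.

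**Figure D5:**
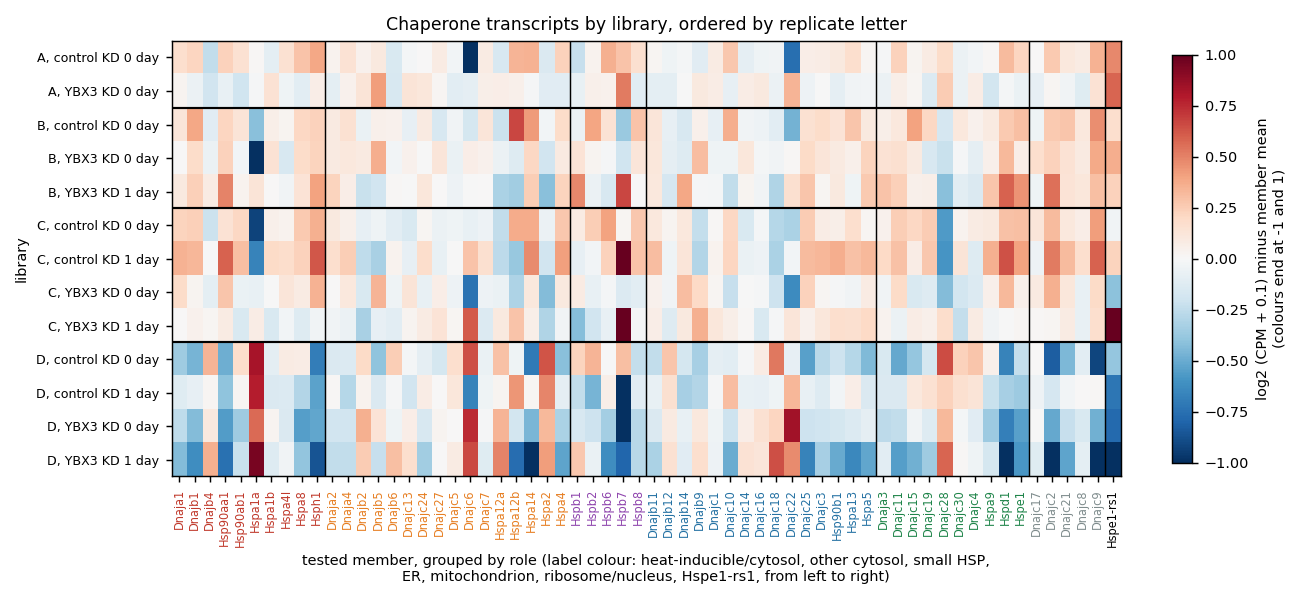
Log2 of CPM + 0.1 minus the member's mean over the 13 libraries, for the 62 tested members grouped by role (columns) and the libraries ordered by replicate letter (rows); blue is below and red above the mean, and colors end at -1 and 1. The 4 rows of replicate D are blue across many cytosolic, ER and mitochondrial members, with 15 members below and 3 above all other libraries.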

How the data were processed

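RNAseq of 13 libraries of C2C12 cells was used. The authors quantified the reads with Salmon (GRCm39, Gencode M30). The values deposited are estimated counts per gene, which were not normalized and are whole numbers. The methods call the libraries stranded, but of the 2 kits named, TruSeq RNA v2 does not mark strand, so overlapping genes on opposite strands may share reads. How counts were summed by gene is not given in the sources used here. From these counts, edgeR 4.0.16 (R 4.3.3, limma 3.58.1) was used with filterByExpr on the 4 groups, TMM scaling, estimateDisp, glmQLFit and glmQLFTest at the defaults of that version, on 16848 genes, with Benjamini-Hochberg adjustment over all of them. A gene was called at an adjusted p under 0.05, and counted in edgeR also at the thresholds of the study. The test among the letters gives no single fold change, so only the adjusted p under 0.001 was used there. DESeq2 1.42.0 was an alternative. The siRNAs were compared over both days with the day as a term, and the days with the siRNA as a term. Contrasts within a day and their difference came from 1 coefficient per group, and the letters were tested together given the group. Standard errors and 95% intervals come from the quasi-likelihood F statistic.

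The members and lists were chosen with earlier results of these data known. Named are members called in a comparison of siRNA or day, the 3 with the smallest p per direction over both days and between the days, 18 fixed chaperones with Ybx3, the 5 with the highest level per length, the 5 with the smallest p among the letters, members removed by the filter, and up to 3 other chaperone genes called per comparison and direction. Any other, such as those called with the letter as a block, those with all of replicate D low or high, and companion genes not called, was chosen after its values were seen.

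Replicate letter and title number disagree at 1 day. After removal of group means, log2 CPM of libraries in different groups correlated above 0.1 in 16 of 16 pairs with the same letter (0.117 to 0.730, median 0.338), in 11 of 46 other pairs (median -0.146) and in 8 of 16 pairs with the same title number. The letter was therefore used as the pairing. Libraries of a group differed by more than sampling noise (chi-square over genes divided by its degrees of freedom, 18.0 or more). Positions are from GENCODE vM39 on GRCm39, the build of the counts. Sequences were read from that genome with Python 3.11.15, and coding sequences were aligned with Biopython 1.88. Levels per kb use the canonical transcript. The test was run on simulated counts drawn independently for each library. For the siRNA and the day these held no differences among the letters, so the check does not cover that feature of these data. Counting error is small at these totals beside the spread between libraries. Protein sequences and raw reads were not analysed here.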

Additional observations from a re-analysis of the deposited data

Results flagged for a closer look

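Of 29 named members, looked at in both groups of 4 libraries, 4 values stood far from the rest of their group (58 groups in all, of which chance flags about 1 in 20), and all 4 were replicate D at 0 day. In control KD, replicate D was lowest for Hsp90aa1 at 745 CPM, with the nearest library at 1161 CPM. It was lowest for Hspd1 at 384 CPM, with the nearest at 731 CPM, and highest for Hspa2 at 28.2 CPM, with the nearest at 17.9 CPM. In YBX3 KD, replicate D was lowest for Hspb6 at 13.2 CPM, with the nearest at 16.5 CPM. No named member had all pairs of the same letter higher at 0 day and lower at 1 day, or the reverse.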

How the results depend on the processing

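The number of members called over both days depended on the fit, with 2 as reported. Shares of all genes stand in parentheses, against 2.34%. In edgeR it was 0 at the thresholds of the study (0.113%). Without the filter on low counts it was 0 (0.594%), and with at least 10 counts in every library 1 (2.9%). DESeq2 gave 7 (7%), of which Dnajb9 also passed the thresholds of the study. The replicate block by letter gave 9 (9.78%), and DESeq2 with that block 17 (17.5%). With the 4 libraries of replicate D left out it was 9 (12.5%). Leaving out each library in turn gave 0 to 4 (1.03% to 5.11%), the 4 without control KD replicate D at 0 day (5.11%). RLE factors gave 2 (2.43%), as did a block by the title number (2.16%). Chosen after seeing the data were the newer quasi-likelihood fit of edgeR, which gave 1 (2.59%), and the replicate block with replicate D left out, which gave 10 (11.9%). At 0 day, DESeq2 with the replicate block gave 5 (7.91%) and leaving out replicate D gave 3 (5.49%), against 0. At 1 day DESeq2 with the replicate block gave 18 (13.9%), against 0. Between the days, leaving out replicate D gave 1 (0.932%), against 0. Among the letters, 31 members (35.7%) became 0 at an adjusted p under 0.001, which 14 of 16848 genes passed. Only the adjusted p was used, since that test gives no single fold change. At an adjusted p under 0.05 the count was 0 without replicate D (0%). It was 20 to 33 with each library left out in turn (17.3% to 34.2%). The causes were not tested. The block changed no call of a member within a day or between the days in edgeR. Of 1078 values of named members under the alternatives, 928 kept their sign and their side of the threshold, 24 lost and 35 gained a call, 91 changed sign with no call on either side, and none reversed with a call. Dnajb9 kept its sign in 23 of 23 alternatives and its call in 13, and Hsp90ab1 its sign in 23 of 23 and its call in 9.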
